A study of Mus musculus with 8 samples.

Results

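Transcripts of the mouse suprachiasmatic nucleus (SCN), the paired hypothalamic cell cluster that paces daily rhythms in mammals, were compared between subjective day and subjective night. All 8 libraries of the series entered the comparison, 4 from subjective day and 4 from subjective night, assigned by the circadian time in the library titles. The day libraries were titled 28, 34, 52 and 58 h, which are circadian times (CT) 4, 10, 4 and 10. The night libraries were titled 22, 40, 46 and 64 h, which are CT 22, 16, 22 and 16. Every library came from C57/BL6 mice that had been entrained for 3 weeks to 12 h of light and 12 h of darkness and were then held in constant darkness. No genotype or drug differed between the groups, so the only labelled difference was time. Each library was a pool of equal RNA amounts from 3 mice, and neither age nor sex was given. The labels state that there were no replicates: a group's 4 libraries were 2 times of day sampled in 2 successive 24-h cycles. The p-values therefore measure spread between pooled libraries and times, not between mice. The labels also put the start of collection at CT 18, whereas the first library was titled CT 22, and this difference was not resolved.

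In the SCN clock, the transcription factors CLOCK and BMAL1 (gene Arntl) bind E-box sequences and switch on Per, Cry, Nr1d1 and Dbp. PER and CRY proteins then inhibit that activation, and the nuclear receptors of the Nr1d and Ror families set the level of Arntl itself. SCN neurons fire faster by day than by night and are held in step by peptides, among them VIP and vasopressin, acting on G-protein-coupled receptors.

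Library totals were between 11123610 and 11131890 sense gene reads, 1782853 and 1872655 intron reads, and 3196136 and 3437120 junction reads. The SCN label was checked against its own genes: Vip was between 189 and 375 CPM and Six6 between 30.7 and 86.3 CPM across the 8 libraries. Markers of neighbouring tissue varied between libraries. Summed oligodendrocyte markers, 12 of 12 tested, ranged from 5112 to 15325 CPM by day and from 8211 to 15983 CPM by night. Summed pituitary markers, 4 of 6 tested and Fshb and Tshb under 10 reads in every library, ranged from 2.87 to 6.91 CPM by day and from 2.73 to 119 CPM by night, the highest being the 22 h library, in which Gh reached 93.1 CPM and Prl 21.8 CPM. Choroid plexus markers, 6 of 7 tested, were at 147 CPM in the 28 h day library, and arcuate neuron markers, 5 of 7 tested, at 108 CPM in the 34 h day library. With an oligodendrocyte marker score as a further term, all 16 genes called below were called again. These markers had a median log2 difference of 0.56 between dusk (CT 10 and 16) and dawn (CT 22 and 4), against -0.19 between day and night. The fit already held a dusk-dawn term, so this refit is a limited check on the day-night calls. The part of the other markers in the results was not tested. In bulk tissue, fewer cells of a type and less RNA per cell cannot be told apart.

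Few genes passed the test between day and night. Of 15217 genes tested, 16 passed an adjusted p below 0.05 (edgeR quasi-likelihood test with the dusk-dawn term, Benjamini-Hochberg adjustment over all genes); such genes are referred to as called. Of the 16, 11 were higher by day, which is 0.0723% of the genes tested, and 5 were lower, which is 0.0329%. With so few calls, a gene list that holds none says little about its members. At an unadjusted p below 0.05 there were 418 genes higher and 756 lower. All 4 day libraries lay above all 4 night libraries for 290 genes (1.91%) and below them for 418 genes (2.75%). Levels are given in counts-per-million (CPM) of sense gene reads. Over all genes the median day-minus-night log2 difference was -0.01, with 48.0% of genes higher by day. The called genes were clock genes (Dbp, Per1, Per2, Nr1d1, Gm129), signalling genes (Rgs16, Rasl11b, Dusp4, Vipr2, Prex2), RNA-binding and chromatin genes (Cirbp, Sfpq, Hmgb3), the chaperone gene Dnajb1, and Armcx5 and Gm12940. DESeq2 called 56 genes on the same counts, 20 higher and 36 lower by day; Rora, Tef, Fbxl21, Prokr2, Sdf2l1, Hnrnpm, Sox2 and Nelf were among those it added. With the oligodendrocyte marker score as a term edgeR called 34, among them Avp, Avpr1a, Rasd1, Hsph1, Chordc1, Hspa1b, Rbm3, Hnrnpm, Serpinh1, Nelf, Fam43a and Zfp933, and without the dusk-dawn term 5 (Dbp, Per1, Cirbp, Dnajb1 and Prex2). Without the 34 h library 10 genes were called, without the 46 h library 28 and without the 58 h library 4.

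**Figure D1:**
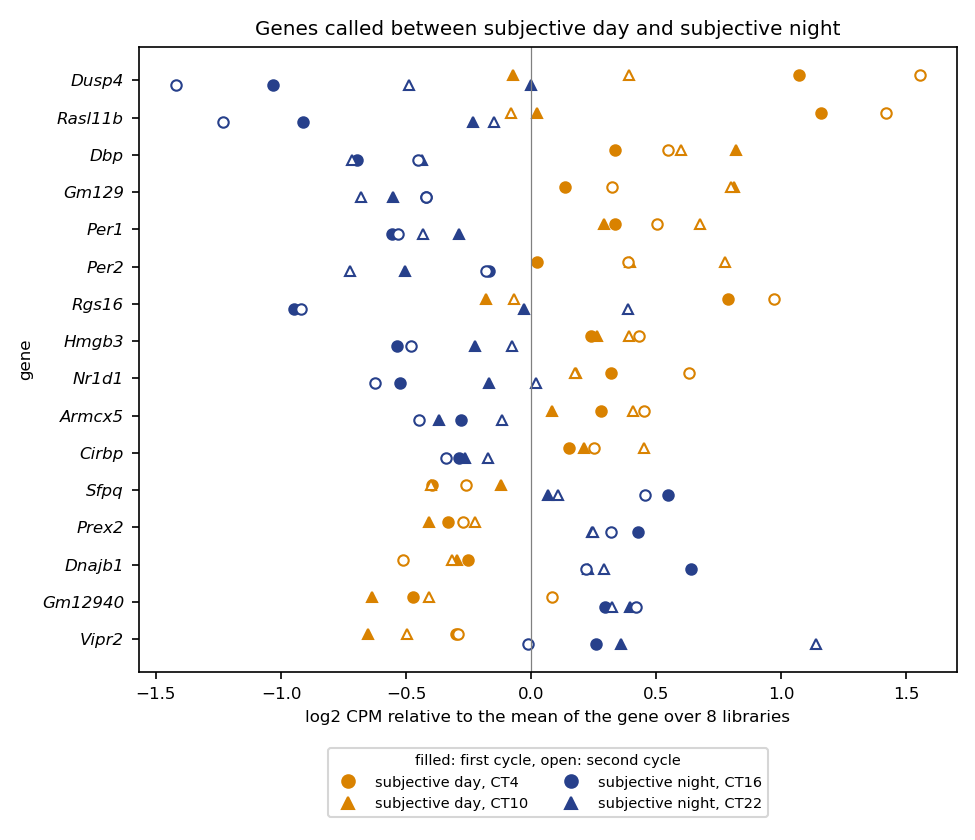
The 16 genes called between subjective day and night, 1 row each, with log2 CPM relative to the gene's mean over 8 libraries on the x axis. Symbols mark the 4 circadian times, filled for the first and open for the second cycle; the day libraries lie to the right of the night libraries for 11 genes and to the left for 5, with overlap for Rgs16 and Dusp4.

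Clock genes made up 5 of the 11 genes called higher by day. These were 5 of the 20 core clock genes tested, against 0.0723% of all genes. Of the 20 core clock genes tested, 15 were higher and 5 lower by day, with a median fold of 1.18, against 0.994 over all genes. For 8 of the 20, all day libraries lay above all night libraries, against 1.91% of all genes, and for 1, Npas2, all lay below. With each library left out in turn, 14 to 15 of the 20 were higher. The list was chosen with earlier results of these data known, and its genes are not independent observations. Values of single libraries are given throughout in the order 28, 34, 52 and 58 h for day and 22, 40, 46 and 64 h for night.

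Dbp (ENSMUSG00000059824, mm9 chromosome 7, 52960391-52965574) encodes a D-box-binding transcription factor that carries the clock's phase to output genes, and it had the lowest p of all genes. It had 66.5, 92.9, 77.1 and 79.9 CPM in the day libraries, against 38.8, 32.4, 32.0 and 38.5 CPM in the night libraries. The lowest day value was well above the highest night value, and the highest of all was the 34 h library at CT 10. The day-minus-night log2 difference was 1.15 ± 0.11 (SE), a fold of 2.22, with an edgeR adjusted p of 0.000321. Tef and Hlf, which encode 2 related factors of the same protein family, had folds of 1.25 (edgeR adjusted p = 0.223) and 1.18 (edgeR adjusted p = 0.569). All 4 Tef day values lay above the night values, while those of Hlf overlapped. Nfil3, which encodes a repressor acting at the same D-box sites, averaged 8.69 ± 1.45 CPM in the day libraries and 10.6 ± 0.869 CPM in the night libraries (SD, n = 4 each), a fold of 0.820 (edgeR adjusted p = 0.753).

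The period genes Per1 and Per2 encode the inhibitors of CLOCK and BMAL1. Per1 (ENSMUSG00000020893, mm9 chromosome 11, 68908711-68923550) had 77.2, 74.8, 86.7 and 97.7 CPM by day, against 49.9, 41.5, 45.3 and 42.2 CPM by night. The groups were separate, and the 58 h library was the highest. Per1 differed by a log2 of 0.91 ± 0.11 (SE), a fold of 1.88, with an edgeR adjusted p of 0.00140. Per2 (ENSMUSG00000055866, mm9 chromosome 1, 93312358-93355922) had 67.9, 88.0, 87.4 and 114 CPM by day, against 47.0, 59.3, 40.3 and 58.9 CPM by night. In each cycle the Per2 value at CT 10 was above that at CT 4. The Per2 fold was 1.74 (edgeR adjusted p = 0.00523), and it did not pass without the 58 h library (adjusted p = 0.0530) or without the dusk-dawn term (0.0976). Per3 averaged 84.7 ± 14.5 CPM in the day libraries and 72.1 ± 9.85 CPM in the night libraries (SD, n = 4 each), with overlap and an edgeR adjusted p of 0.561. The cryptochrome genes, partners of the period proteins, differed less: Cry2 had a fold of 1.20 (edgeR adjusted p = 0.445) and Cry1 a fold of 1.02 (edgeR adjusted p = 0.966). The Cry1 difference changed sign without the 58 or the 64 h library, with log2 values of -0.030 and -0.012.

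Gm129 (ENSMUSG00000038550, mm9 chromosome 3, 95682362-95686230), also known as Ciart, encodes a further repressor of CLOCK and BMAL1. It had 13.1, 21.1, 14.9 and 20.8 CPM by day, against 8.05, 8.85, 7.36 and 8.85 CPM by night. No values overlapped, and the CT 10 libraries were the highest. Its fold was 2.08, with an edgeR adjusted p of 0.00912; it did not pass without the 34, 58 or 64 h library (adjusted p = 0.0589 to 0.0871) or without the dusk-dawn term (0.0721). Bhlhe40 and Bhlhe41, which encode E-box-binding repressors, had folds of 1.13 and 1.13, with edgeR adjusted p-values of 0.746 and 0.703.

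Promoter sequences of Per1 and Gm129 are shown because both genes were called higher by day and both carry the E-box CACGTG, the site at which CLOCK and BMAL1 act. The 250 bases before the RefSeq start are given, from GRCm38.p6 (not the mm9 build of the counts), with the E-box in capitals. The Per1 promoter lies at chr11:69098699-69098948 on the plus strand and the Gm129 promoter at chr3:95882229-95882478 on the minus strand.
Per1: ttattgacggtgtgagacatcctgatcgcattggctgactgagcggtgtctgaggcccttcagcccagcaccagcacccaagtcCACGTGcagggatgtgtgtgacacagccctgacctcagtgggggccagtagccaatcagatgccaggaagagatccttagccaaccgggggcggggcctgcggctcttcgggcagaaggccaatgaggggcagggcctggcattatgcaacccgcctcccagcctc
Gm129: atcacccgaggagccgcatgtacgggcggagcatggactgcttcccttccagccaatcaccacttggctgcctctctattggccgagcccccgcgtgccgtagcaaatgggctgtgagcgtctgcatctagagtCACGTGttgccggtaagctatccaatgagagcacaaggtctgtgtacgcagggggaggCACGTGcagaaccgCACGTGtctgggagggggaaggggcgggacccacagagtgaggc
Counted from the start, Per1 holds 1 E-box, with its first base at -166, and Gm129 holds 3, at -116, -58 and -44. In windows from 250 bases before to 50 after the start, CACGTG, which reads the same on both strands, was found in 5 of 17 core clock genes with a window (29.4%), in 1314 of 11658 genes tested (11.3%) and in 7.15% of all windows. Of the 16 called genes, 12 had a window, and 2 of the 12 held the E-box. A match is a description of letters only.

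Among the nuclear receptors, Nr1d1 (ENSMUSG00000020889, mm9 chromosome 11, 98629198-98636708), a repressor of Arntl, had 88.2, 80.1, 109.5 and 79.8 CPM by day, against 62.8, 49.1, 71.6 and 45.8 CPM by night. The groups did not overlap, and the values at CT 4 and CT 22 were the higher ones of each group. Nr1d1 had a fold of 1.57 and an edgeR adjusted p of 0.00912, and did not pass without the 52, 58 or 64 h library (adjusted p = 0.0537 to 0.0703) or without the dusk-dawn term (0.168). Its relative Nr1d2 had a fold of 1.20 (edgeR adjusted p = 0.410), with all day values above all night values. Rora, an activator of Arntl, averaged 159 ± 32.7 CPM in the day libraries and 104 ± 27.0 CPM in the night libraries (SD, n = 4 each), with overlap. The Rora fold was 1.54 with an edgeR adjusted p of 0.0941, and it passed without the 46 h library (adjusted p = 0.0121), with DESeq2 (0.000994) and with the cycle as a term (0.0353). No other leave-out passed for Rora, with edgeR adjusted p-values up to 0.436. Rorb had a fold of 1.05, which changed sign without the 22 or the 52 h library, with log2 values of -0.054 and -0.016.

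The activators themselves were on the lower side by day. Arntl averaged 38.5 ± 5.15 CPM in the day libraries and 50.1 ± 8.16 CPM in the night libraries (SD, n = 4 each), with overlap, a fold of 0.768 and an edgeR adjusted p of 0.332. Clock had a fold of 0.848 and Npas2, a relative of Clock, a fold of 0.647, with edgeR adjusted p-values of 0.557 and 0.310. Of 24 genes for clock-modifying enzymes and cofactors, such as casein kinases and F-box proteins, 6 were higher and 18 lower by day, with a median fold of 0.957 and none called. The first of them by p was Fbxl21, which encodes an F-box protein that acts on cryptochromes. Fbxl21 had 21.4, 14.9, 18.98 and 15.5 CPM by day, against 11.2, 11.4, 10.99 and 8.50 CPM by night. These did not overlap, and the fold was 1.67 with an edgeR adjusted p of 0.101.

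Of the genes for intracellular signalling, Rasl11b, Rgs16 and Dusp4 were called higher by day, and the first 2 were also called between dusk and dawn. Rasl11b (ENSMUSG00000049907, mm9 chromosome 5, 74591292-74595640), a Ras-like small GTPase, had 53.9, 24.4, 64.6 and 22.7 CPM by day, against 20.4, 12.7, 21.6 and 10.1 CPM by night. The CT 4 libraries were the highest and the CT 16 libraries the lowest in both cycles, with CT 10 and CT 22 close to each other. The fold was 2.44 and the edgeR adjusted p 0.000454. Rgs16 (ENSMUSG00000026475, mm9 chromosome 1, 155587463-155592781), a regulator of G-protein signalling that is enriched in the SCN, had 268, 137, 304 and 148 CPM by day, against 152, 80.3, 203 and 81.9 CPM by night. Those values overlapped, with both CT 10 libraries below both CT 22 libraries. With the dusk-dawn term, the Rgs16 fold was 1.68 and the edgeR adjusted p 0.00373. Without that term, the edgeR adjusted p was 0.592 for Rgs16 and 0.202 for Rasl11b.

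Dusp4 (ENSMUSG00000031530, mm9 chromosome 8, 35870264-35883097), a phosphatase that switches off MAP kinases, had 17.5, 7.82, 24.6 and 10.9 CPM by day, against 8.23, 3.92, 5.82 and 2.95 CPM by night. The 34 h day value lay below the 22 h night value. Dusp4 had the largest fold of the called genes, 2.86, with an edgeR adjusted p of 0.00523; it did not pass without the 58 h library (adjusted p = 0.0530) or without the dusk-dawn term (0.178). It was the only one called among 23 MAP kinase feedback genes (phosphatases, Sprouty and Spred proteins, and ETS factors), against 11 of 15217 genes called higher by day. Of the 23, 7 were higher and 16 lower by day, with a median fold of 0.928. Etv5, an ETS factor, had a fold of 0.828 (edgeR adjusted p = 0.440) and Errfi1, an inhibitor of the EGF receptor, a fold of 0.805 (edgeR adjusted p = 0.460). Of 22 immediate-early genes, which respond to light pulses and firing, 11 were higher and 11 lower by day and none was called. Sik1, a kinase that limits CREB activity, had a fold of 1.27, Jun a fold of 0.700 and Btg2 a fold of 1.24, with edgeR adjusted p-values of 0.447, 0.528 and 0.572.

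Among receptors for SCN peptides, Vipr2 was called lower by day. Vipr2 (ENSMUSG00000011171, mm9 chromosome 12, 117316180-117384946), the receptor through which VIP synchronises SCN neurons, had 52.8, 41.3, 53.1 and 46.1 CPM by day, against 83.4, 77.8, 144 and 64.6 CPM by night. The groups were separate, and the 46 h night library was the highest by far. Vipr2 fell by day, with a fold of 0.534 (edgeR adjusted p = 0.0171), and it did not pass without the 28, 34, 40, 52 or 58 h library (adjusted p = 0.0530 to 0.106) or without the dusk-dawn term (0.135). Of 12 Vipr2 junctions, 11 were lower by day, with a median fold of 0.491. They come from the libraries in which the gene was called and are not separate support. Avpr1a, a vasopressin receptor, had 7.99, 10.5, 7.74 and 10.9 CPM by day, against 21.2, 20.6, 25.7 and 12.3 CPM by night. These too did not overlap, and the fold was 0.468 with an edgeR adjusted p of 0.0732. Avpr1a passed without the 64 h library (adjusted p = 0.0159) and with DESeq2 (adjusted p = 0.000715). No other leave-out passed for Avpr1a, with edgeR adjusted p-values up to 0.244. Prokr2, the receptor of the output peptide prokineticin 2, had a fold of 0.675 with overlap (edgeR adjusted p = 0.259).

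The peptides themselves were not called with the dusk-dawn term alone. Avp, the vasopressin gene, had 37.8, 51.3, 54.3 and 52.8 CPM by day, against 49.9, 12.8, 37.0 and 22.4 CPM by night. The 22 h night value lay above the 28 h day value, and the fold was 1.74 with an edgeR adjusted p of 0.391. Avp passed with the oligodendrocyte marker score as a further term (log2 difference 0.94, edgeR adjusted p = 0.00782) and with no filter on low counts (9.95e-08). It passed in none of the 8 leave-outs. Prok2 averaged 6.91 ± 4.92 CPM in the day libraries and 2.94 ± 2.04 CPM in the night libraries (SD, n = 4 each) with overlap, and its edgeR adjusted p was 0.697. Vip averaged 237 ± 33.3 CPM in the day libraries and 267 ± 72.7 CPM in the night libraries (SD, n = 4 each), a fold of 0.895 with an edgeR adjusted p of 0.834. The 20 peptide and receptor genes tested split into 12 higher and 8 lower by day, with a median fold of 1.02.

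Of 17 genes that mark the identity of SCN neurons, 4 were higher and 13 lower by day, with a median fold of 0.888. Rgs16 was called higher and none was called lower, against 11 and 5 of 15217 genes. Rasd1, a Ras-like protein that modifies the clock's response to light, had 35.9, 56.3, 33.9 and 59.4 CPM by day, against 63.5, 93.5, 96.3 and 69.7 CPM by night. Its groups did not overlap, and the fold was 0.559 with an edgeR adjusted p of 0.0528, just above the threshold of 0.05. Rasd1 passed without the 46 or 64 h library (adjusted p = 0.0449 and 0.0222) but in no other leave-out (edgeR adjusted p up to 0.208). Lhx1, a transcription factor needed for coupling between SCN neurons, averaged 31.1 ± 5.76 CPM in the day libraries and 51.8 ± 21.4 CPM in the night libraries (SD, n = 4 each), with overlap and an edgeR adjusted p of 0.357.

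Heat shock chaperones had the largest share of members on the lower side by day among the 30 gene lists. Of 31 tested, 29 were lower and 2 higher, with a median fold of 0.808, against 0.994 over all genes, of which 7906 of 15217 were lower. All 4 day libraries lay below all 4 night libraries for 16 of the 31, against 2.75% of all genes. At an unadjusted p below 0.05 in the edgeR test, 22 of the 31 were lower, against 756 of 15217 genes. A single one, Dnajb1, was called, against 5 of 15217 genes called lower by day. Leaving out each library in turn left 29 to 31 of the 31 lower, with medians from 0.776 to 0.842. Those runs reuse the same libraries and are not separate support. The lists were chosen with earlier results of these data known, and genes of a list are not independent observations. Chaperones of this group help proteins fold, and the transcription factor HSF1 induces them when temperature rises or unfolded protein builds up.

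**Figure D2:**
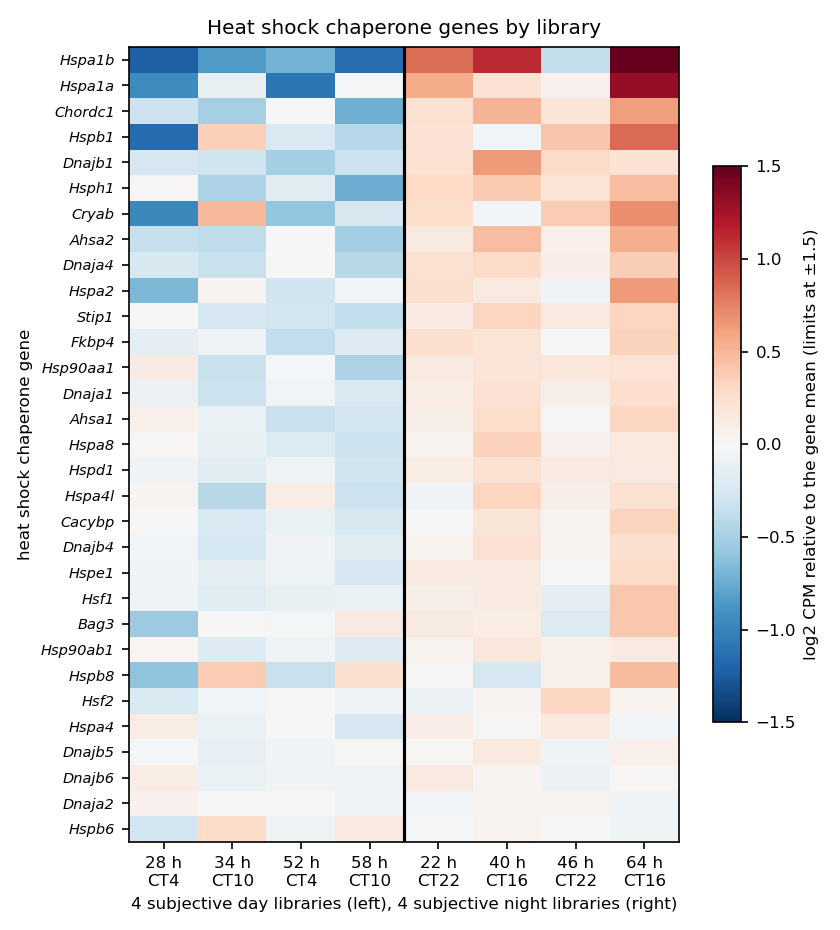
Log2 CPM relative to the gene mean for the 31 heat shock chaperone genes tested (rows) in the 4 subjective day libraries (left of the line) and the 4 subjective night libraries (right), with colours limited at ±1.5. Most rows run from low values by day to high values by night; Hspb6 and Dnaja2 are the 2 genes on the higher side by day.

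Dnajb1 (ENSMUSG00000005483, mm9 chromosome 8, 86132038-86135932), which encodes a co-chaperone of HSP70, had 62.8, 61.0, 52.4 and 60.1 CPM by day, against 87.7, 117, 91.6 and 87.2 CPM by night. No values overlapped, and the 40 h night library stood above the other 3 night libraries. Dnajb1 fell by day, with a fold of 0.617 and an edgeR adjusted p of 0.00912, and did not pass without the 34, 52 or 58 h library (adjusted p = 0.0549 to 0.0881). Hsph1 (ENSMUSG00000029657, mm9 chromosome 5, 150416820-150438956), which encodes an exchange factor that recharges HSP70, had 458, 329, 406 and 269.9 CPM by day, against 556, 595, 517 and 625 CPM by night. Its groups did not overlap. The fold was 0.629 with an edgeR adjusted p of 0.0558. Hsph1 passed without the 28 or 46 h library (adjusted p = 0.0194 and 0.0180) and with DESeq2 (adjusted p = 0.00012). In the other leave-outs it did not pass, with edgeR adjusted p-values up to 0.339.

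Chordc1 (ENSMUSG00000001774, mm9 chromosome 9, 18096692-18118566), which encodes a partner of HSP90, had 98.3, 86.6, 123 and 73.5 CPM by day, against 143, 174, 138 and 189 CPM by night. The groups were again separate. Its fold was 0.589 with an edgeR adjusted p of 0.0526. Chordc1 passed without the 46 or 52 h library (adjusted p = 0.0158 and 0.0253) and with DESeq2 (adjusted p = 0.000107). In the other leave-outs it did not pass, with edgeR adjusted p-values up to 0.324. The inducible HSP70 gene Hspa1b was low, with 1.26, 1.69, 1.89 and 1.35 CPM by day, against 5.91, 7.21, 2.45 and 17.0 CPM by night. The 64 h night library was the highest and the 46 h library the lowest of the night group. The Hspa1b fold was 0.212 with an edgeR adjusted p of 0.0526. Hspa1b passed without the 46 h library (adjusted p = 0.00537) and with DESeq2 (adjusted p = 6.47e-05). It passed in no other leave-out, with edgeR adjusted p-values up to 0.354. Hspa1a, a near-identical copy, had a fold of 0.437 (edgeR adjusted p = 0.294), and how reads were divided between the copies is not given in the sources used here.

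The abundant chaperones showed smaller differences. Hspa8, the constitutive HSP70, averaged 1747 ± 174 CPM in the day libraries and 2163 ± 211 CPM in the night libraries (SD, n = 4 each), a fold of 0.808 with an edgeR adjusted p of 0.392. Hsp90aa1 averaged 1566 ± 297 CPM in the day libraries and 1971 ± 42.4 CPM in the night libraries (SD, n = 4 each), a fold of 0.785 with an edgeR adjusted p of 0.335. For both, all day values lay below all night values. The mitochondrial chaperonin genes Hspd1 and Hspe1 had folds of 0.814 and 0.832, and Stip1, which hands clients over between HSP70 and HSP90, a fold of 0.734, with edgeR adjusted p-values of 0.302, 0.440 and 0.101. The gene for the regulator, Hsf1, had a fold of 0.845 with overlap (edgeR adjusted p = 0.661).

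Sequences upstream of Hsph1 and over the start of Chordc1 are shown because these genes had 2 of the lowest p-values in the group and carry the heat shock element, searched as GAANNTTC or TTCNNGAA on both strands, where N is any base. They are from RefSeq, GRCm38.p6, with elements in capitals. The Hsph1 stretch is chr5:149636337-149636586 on the minus strand, the 250 bases before the start. That of Chordc1 is chr9:18292258-18292287 on the plus strand, 30 bases over the start, where 4 elements overlap each other.
Hsph1: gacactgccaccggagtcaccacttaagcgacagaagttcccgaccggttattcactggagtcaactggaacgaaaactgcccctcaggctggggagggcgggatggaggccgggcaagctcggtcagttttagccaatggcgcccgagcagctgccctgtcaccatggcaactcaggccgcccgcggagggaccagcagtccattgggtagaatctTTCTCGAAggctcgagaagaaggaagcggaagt
Chordc1: aaccgGAACGTTCGGGAAAATTCCTGAAgc
The Hsph1 element shown has its first base at -33, and the same window holds 2 more after the start, at 37 and 42. This Hsph1 window also holds the E-box CACGTG, with its first base at 3 counted from the start and so outside the stretch shown. Hsph1 has 2 windows, and in the second, counted from its own start, the E-box begins at -19. That E-box was found in 3 of 26 chaperone genes with a window (11.5%), against 11.3% of genes tested. Heat shock elements lay within 250 bases before to 50 after the start in 15 of 26 chaperone genes with a window (57.7%), against 1613 of 11658 genes tested (13.8%) and 15.1% of all windows. Because the list is one of heat shock genes, this share bears on no day-night difference. As for the E-box, a match is a description of letters only. Of the 12 called genes with a window, 0 held the element, and Dnajb1, the called chaperone gene, was among these.

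Among 28 genes for folding in the endoplasmic reticulum (ER), 21 were lower and 7 higher by day, with a median fold of 0.928 and none called; all day values lay below the night values for 5, against 2.75% of all genes. Sdf2l1, a chaperone component, had a fold of 0.467 (edgeR adjusted p = 0.101). It passed without the 46 h library (adjusted p = 0.00734) but in no other leave-out (edgeR adjusted p up to 0.486). Calr, the calreticulin gene, had a fold of 0.799 (edgeR adjusted p = 0.282). Of 13 subunit genes of the cytosolic chaperonin and of prefoldin, 9 were lower and 4 higher, with a median fold of 0.968.

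Serpinh1, which encodes the collagen-specific chaperone of the endoplasmic reticulum and was in none of the lists, had 24.7, 32.3, 27.4 and 26.2 CPM by day, against 45.4, 37.7, 40.2 and 56.8 CPM by night. The groups were separate, with a fold of 0.615 and an edgeR adjusted p of 0.0558. It passed without the 40 h library (adjusted p = 0.0246) and with DESeq2 (adjusted p = 0.00125), but in no other leave-out (edgeR adjusted p up to 0.331). Summed meningeal markers, 9 of 9 tested, ranged from 116 to 635 CPM by day and from 323 to 587 CPM by night, the lowest being the 28 h library, and their part in this value was not tested.

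Of the genes for RNA-binding proteins that respond to cooling, Cirbp was called higher by day. Cirbp (ENSMUSG00000045193, mm9 chromosome 10, 79628721-79635546), the cold-inducible RNA-binding protein, had 174, 181, 187 and 215 CPM by day, against 130.4, 128, 139 and 124 CPM by night. The night values lay within a narrow band under the lowest day value. Cirbp had a fold of 1.45 and an edgeR adjusted p of 0.0171; it did not pass without the 22, 40, 52, 58 or 64 h library (adjusted p = 0.0547 to 0.119). Rbm3, its close relative, had 110.0, 184, 121 and 204 CPM by day, against 98.7, 108, 106 and 110.0 CPM by night. Those values barely separated: the 28 h day and 64 h night values were equal to the digits shown, and the CT 10 libraries were the highest. The Rbm3 fold was 1.42 with an edgeR adjusted p of 0.158. With DESeq2 the adjusted p was 0.00887, while Rbm3 passed in none of the 8 leave-outs. All 6 Cirbp junctions tested were higher by day, with a median fold of 1.51, in the same libraries as the gene call and so not as separate support. Srsf5, the third gene of the cold-responsive list, had a fold of 0.901 with overlap (edgeR adjusted p = 0.750).

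Nuclear RNA-processing genes were more often lower by day. Sfpq (ENSMUSG00000028820, mm9 chromosome 4, 126698479-126714265), a paraspeckle and splicing protein, had 121, 147, 133 and 121 CPM by day, against 167, 233, 172 and 219 CPM by night. The CT 16 libraries (40 and 64 h) were highest, and no values overlapped. Sfpq fell by day, with a fold of 0.666 and an edgeR adjusted p of 0.0171, and did not pass without the 28, 34, 40, 58 or 64 h library (adjusted p = 0.0501 to 0.119) or without the dusk-dawn term (0.0976). Gm12940 (ENSMUSG00000085334, mm9 chromosome 4, 126710964-126726812) overlaps Sfpq in the annotation, so reads of the 2 may be shared. It had 36.6, 32.7, 53.9 and 38.4 CPM by day, against 67.1, 62.6, 63.7 and 68.2 CPM by night, a fold of 0.614 with no overlap (edgeR adjusted p = 0.0390). Gm12940 did not pass without the 22, 28, 34, 40, 58 or 64 h library (adjusted p = 0.0885 to 0.199), without the dusk-dawn term (0.0976), without scaling (0.0586) or with a stricter filter on low counts (0.0503).

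Of 9 paraspeckle genes, 8 were lower and 1 higher by day, with a median fold of 0.930. Of 21 SR splicing factor genes, 18 were lower and 3 higher, with a median fold of 0.913 and none called. Of 37 genes for hnRNP and RBM proteins, 24 were lower and 13 higher, with a median fold of 0.970. Tra2a, which promotes exon inclusion, had 180.4, 186, 223 and 155 CPM by day, against 269, 245, 239.5 and 283 CPM by night, a fold of 0.715 (edgeR adjusted p = 0.101). Its groups did not overlap, and DESeq2 gave an adjusted p of 0.0046, while Tra2a passed in none of the 8 leave-outs. Hnrnpm, a splicing regulator, had a fold of 0.736 (edgeR adjusted p = 0.0756). It passed without the 46 h library (adjusted p = 0.0372) but in no other leave-out (edgeR adjusted p up to 0.367).

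**Figure D3:**
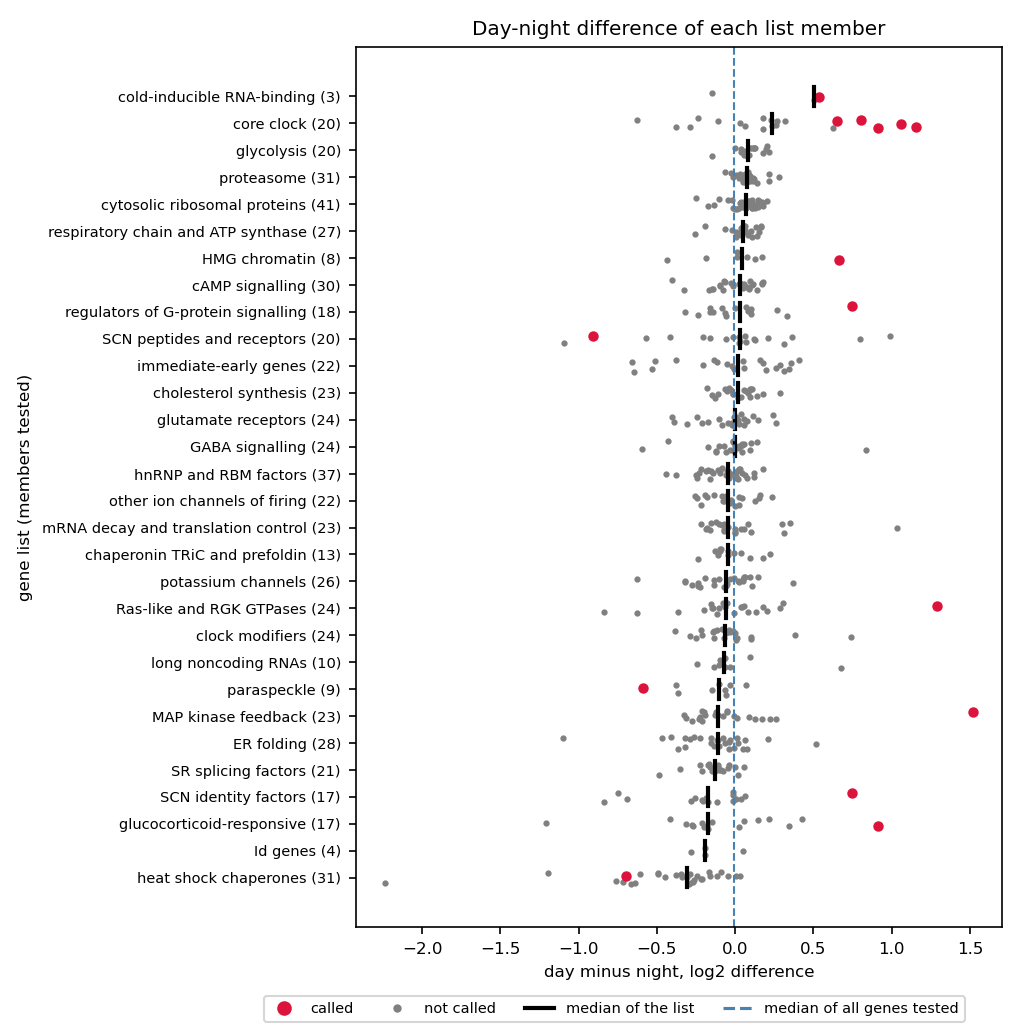
Day-minus-night log2 difference of each gene (points, red where called) in the 30 gene lists other than cell type markers, with list medians as black bars and the median of all genes tested as a dashed line; the number tested stands in parentheses. Heat shock chaperones lie lowest and the core clock and cold-inducible lists highest, while most lists centre near the dashed line.

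Housekeeping groups had most members on the higher side by day, with small differences and no call. Of 20 glycolysis genes, 18 were higher by day with a median fold of 1.06; of 27 respiratory chain and ATP synthase genes, 23 with 1.04. Of 41 cytosolic ribosomal protein genes, 33 were higher with a median fold of 1.05, and of 31 proteasome genes, 28 with 1.05. Leaving out single libraries moved these counts to between 15 and 19 for glycolysis, 16 and 26 for the respiratory chain, 24 and 39 for ribosomal proteins, and 26 and 29 for the proteasome. The ribosomal protein genes had a median log2 difference of 0.16 in the first cycle and of -0.01 in the second, while the other 3 lists had medians above 0 in both. Genes of a list are not independent observations.

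The remaining called genes were Hmgb3, Prex2 and Armcx5. Hmgb3 (ENSMUSG00000015217, mm9 chromosome X, 68809077-68813952), a chromatin protein of the HMG-box family, had 54.5, 55.4, 62.3 and 60.6 CPM by day, against 39.5, 31.8, 43.8 and 33.0 CPM by night. The groups were separate, and the CT 16 libraries were lowest. Hmgb3 had a fold of 1.58 with an edgeR adjusted p of 0.0171, and did not pass without the 34, 40, 52, 58 or 64 h library (adjusted p = 0.0549 to 0.119) or without the dusk-dawn term (0.0779). The other 7 HMG chromatin genes tested were not called. Prex2 (ENSMUSG00000048960, mm9 chromosome 1, 10983502-11294360), an exchange factor that activates the GTPase Rac, had 51.2, 48.5, 53.4 and 55.1 CPM by day, against 76.5, 86.9, 76.7 and 80.5 CPM by night. Day values lay in a narrow band below the night values. Prex2 fell by day, with a fold of 0.650 (edgeR adjusted p = 0.00811), and did not pass without the 58 h library (adjusted p = 0.0530).

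Armcx5 (ENSMUSG00000072969, mm9 chromosome X, 132277090-132282101), an X-linked armadillo-repeat gene, had 54.4, 47.4, 61.3 and 59.5 CPM by day, against 34.6, 36.9, 41.3 and 32.8 CPM by night. No values overlapped. Armcx5 had a fold of 1.53 with an edgeR adjusted p of 0.0390, and did not pass without the 22, 28, 40, 52, 58 or 64 h library (adjusted p = 0.0501 to 0.224) or without the dusk-dawn term (0.0976). It overlaps Gprasp1 (ENSMUSG00000043384, mm9 chromosome X, 132277248-132338485) in the annotation, so reads of the 2 may be shared. Gprasp1 itself averaged 2262 ± 284 CPM in the day libraries and 2323 ± 258 CPM in the night libraries (SD, n = 4 each), a fold of 0.968 (edgeR adjusted p = 0.940). Gprasp1 introns were higher by day without overlap, with a fold of 1.47 (edgeR adjusted p = 0.0536). Of their reads, 70.3% came from chrX:132279115-132283194 (mm9), a stretch that overlaps Armcx5.

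Outside the lists, 10 further genes had no overlap between groups and the lowest p-values short of a call, and 9 of them were lower by day. Among all genes tested, 418 lay below and 290 above by day without overlap. Sox2, a transcription factor of neural progenitors that SCN neurons keep expressing, had 98.1, 99.4, 125 and 92.9 CPM by day, against 144, 135, 148 and 135 CPM by night, a fold of 0.736 (edgeR adjusted p = 0.0867). Sox2 passed without the 52 h library (adjusted p = 0.0405) but in no other leave-out (edgeR adjusted p up to 0.427). Nelf, linked to the migration of GnRH neurons, had 173, 171, 170.1 and 180.0 CPM by day, against 239, 213, 260.2 and 213 CPM by night, a fold of 0.753 (edgeR adjusted p = 0.0867). The exception was Creb3l1, a membrane-bound transcription factor known in rat as an activator of the vasopressin gene. Creb3l1 had 10.05, 7.73, 15.4 and 11.6 CPM by day, against 5.73, 3.38, 4.91 and 6.53 CPM by night, a fold of 2.16 (edgeR adjusted p = 0.125). The other 7, Serpinh1 among them, had folds from 0.498 in Adam8, a membrane protease, to 0.739 in Usp31, a ubiquitin protease; the remaining ones were Fam43a, Dsel, 1700007K13Rik and Zfp933.

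Intron reads can come from RNA not yet spliced or from introns kept in polyA RNA, and these sources were not told apart. The share of a gene's summed reads from its leading intron varied among the called introns. It ran from 29.4% in Per2 to 97.1% in 1700007K13Rik, apart from DQ704763 with its single intron. Summed per gene, introns of 13724 genes were tested, and 14 were called. Of these, 6 were higher by day, which is 0.0437%, and 8 were lower, which is 0.0583%. At an unadjusted p below 0.05 there were 1081. The count of calls was 8 without the 22 h or the 46 h library, 9 without the 28 h or the 34 h library, 3 without the 40 h, 2 without the 58 h and 6 without the 64 h library. Intron and junction CPM are, like gene CPM, scaled to the sense gene reads of the same library. No gene's intron difference departed from its gene difference past the threshold in 11901 genes tested for that (0%), with 710 at an unadjusted p below 0.05 and likewise none under any alternative run.

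Dbp introns had 30.6, 30.1, 30.7 and 27.5 CPM by day, against 11.5, 12.6, 13.5 and 13.95 CPM by night. Both groups were tight and far apart. The fold was 2.301 and the edgeR adjusted p 1.63e-05, close to the gene fold of 2.22, and 55.9% of the reads came from the intron at chr7:52962387-52963629 (mm9). Per1 introns had 18.8, 16.3, 16.9 and 24.6 CPM by day, against 9.40, 7.48, 9.81 and 10.6 CPM by night. They did not overlap, and the fold was 2.05 (edgeR adjusted p = 0.00559), which did not pass without the 40 or 58 h library (adjusted p = 0.0571 to 0.0861). Per2 introns had a fold of 1.69 (edgeR adjusted p = 0.0466), and passed neither in any of the 8 leave-outs nor without the dusk-dawn term (0.0736).

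Hsph1 introns had 145, 121, 121 and 101 CPM by day, against 177, 191, 176 and 195 CPM by night. All day values lay below the night values. Of the Hsph1 intron reads, 76.8% came from the intron at chr5:150417283-150420034 (mm9). Hsph1 introns fell by day, with a fold of 0.658 (edgeR adjusted p = 0.0101), near the gene fold of 0.629, and did not pass without the 40, 58 or 64 h library (adjusted p = 0.0571 to 0.0938). Of the 28 heat shock chaperone genes with introns tested, 25 were lower and 3 higher by day, with a median intron fold of 0.803. Over all genes tested in both reads, introns were lower by day for 6325 of 11901, with a median intron fold of 0.987. For Srsf6, an SR splicing factor, introns fell by day, with a fold of 0.652 (edgeR adjusted p = 0.0308), and passed neither in any of the 8 leave-outs nor without the dusk-dawn term (0.0580).

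**Figure D4:**
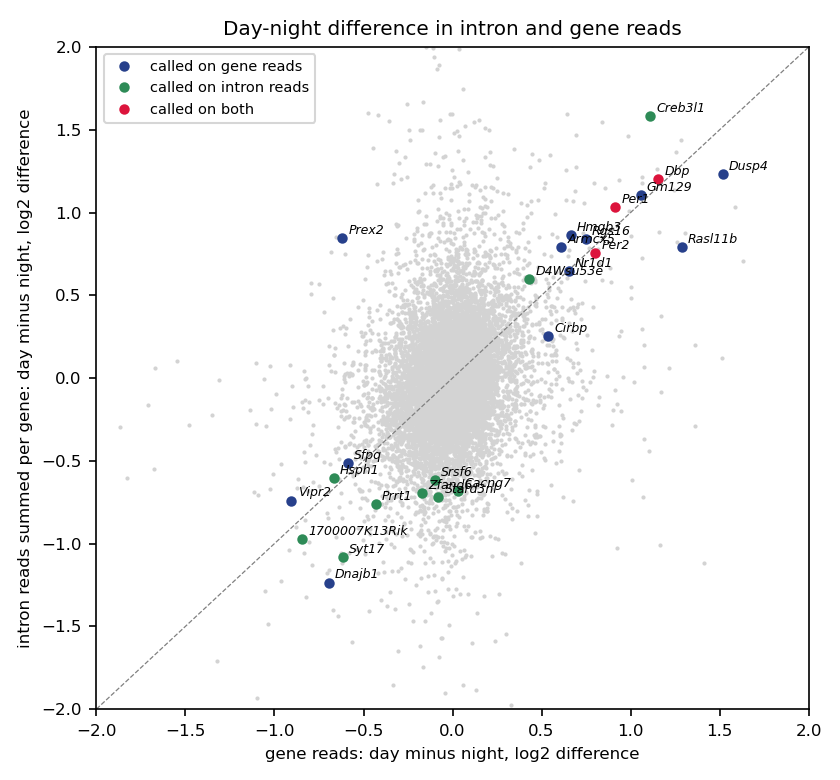
Day-minus-night log2 difference of gene reads (x axis) against that of intron reads summed per gene (y axis) for 11901 genes, 13 of them beyond the axes; the dashed line marks equal values. Dbp, Per1, Per2 and Hsph1 lie near the line, and Prex2, lower by day in gene reads, lies above 0 on the intron axis, at under 1 CPM of intron reads in every library.

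The other called introns were D4Wsu53e, DQ704763 and Creb3l1 (higher by day) and Zfand6, Prrt1, 1700007K13Rik, Cacng7, Syt17 and Stard3nl (lower). D4Wsu53e introns had 375, 389, 403 and 407 CPM by day, against 223, 244, 259 and 315 CPM by night, and the call held in all 8 leave-outs (fold 1.52, edgeR adjusted p = 0.00329). Zfand6 introns, 90.7% of whose reads came from 1 intron, had a fold of 0.617 (edgeR adjusted p = 0.0101) and did not pass without the 28, 40, 46 or 58 h library (adjusted p = 0.0554 to 0.0938). Creb3l1 introns, at a fold of 2.999, had the same sign as the gene; the edgeR adjusted p was 0.0182, and they did not pass without the 22, 40, 46, 52 or 58 h library (adjusted p = 0.0610 to 0.172) or without the dusk-dawn term (0.0814). The single intron of DQ704763 (fold 3.41, edgeR adjusted p = 0.0131) did not pass without the 40, 58 or 64 h library (adjusted p = 0.0610 to 0.134). Prrt1 introns (fold 0.591, edgeR adjusted p = 0.0131) did not pass without the 22, 28, 34, 58 or 64 h library (adjusted p = 0.0532 to 0.118), nor did those of 1700007K13Rik (fold 0.510, edgeR adjusted p = 0.0132) without the 34, 40, 58 or 64 h library (adjusted p = 0.0593 to 0.120). For Cacng7, a calcium channel subunit, the intron fold was 0.622 (edgeR adjusted p = 0.0132), which did not pass without the 22, 28, 34, 40, 58 or 64 h library (adjusted p = 0.0571 to 0.123). For Syt17, a synaptotagmin, it was 0.472 (edgeR adjusted p = 0.0132), which did not pass without the 28, 40, 46 or 58 h library (adjusted p = 0.0817 to 0.156). Stard3nl introns (fold 0.607, edgeR adjusted p = 0.0466) passed in none of the 8 leave-outs, nor without the dusk-dawn term (0.0736) or with TMM scaling of the intron counts themselves (0.0558).

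Prex2 introns had 0.449, 0.533, 0.900 and 0.988 CPM by day, against 0.716, 0.274, 0.818 and 0 CPM by night. These low values overlapped, and the fold of 1.80 (edgeR adjusted p = 0.862), against a gene fold of 0.650, rests on few reads. The intron-minus-gene log2 difference was 1.33 ± 0.55 (SE), with an edgeR adjusted p of 0.79, which did not pass.

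Splice junctions were the noisiest feature, with a common coefficient of variation of 0.346 between libraries, against 0.194 for introns and 0.143 for genes. Of 78212 junctions tested, 1 was called higher by day (0.00128%) and 0 lower (0%), with 3690 at an unadjusted p below 0.05; DESeq2 called 21. The count was 0 without the 22, 34 or 64 h library, 3 without the 52 or 58 h library, and 4, 30 and 7 without the 28, 40 and 46 h libraries. The called junction was that of Dbp at chr7:52963842-52965034 (mm9). It had 14.4, 20.1, 14.7 and 15.7 CPM by day, against 5.28, 7.48, 6.45 and 6.53 CPM by night. The groups were far apart, and the fold was 2.51 (edgeR adjusted p = 0.0159), which did not pass without the 22, 34 or 64 h library (adjusted p = 0.0763 to 0.282).

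The next 4 junctions by p all had an edgeR adjusted p of 0.0829. Of these, 3 belonged to Hsph1, and all 3 had day values below every night value. The Hsph1 junction at chr5:150421644-150422451 (mm9) averaged 14.3 ± 1.94 CPM by day and 27.8 ± 3.25 CPM by night (SD, n = 4 each). The fourth, in Avp at chr2:130406994-130408145 (mm9), had 34.9, 42.9, 43.2 and 40.9 CPM by day, against 19.9, 13.9, 30.7 and 17.2 CPM by night. These did not overlap, unlike the Avp gene values. The fold of the Avp junction was 2.03, and it passed without the 28 or 46 h library (adjusted p = 0.0420 and 0.00891). In the other leave-outs it did not pass, with edgeR adjusted p-values up to 0.730. All 7 Nr1d1 junctions, 8 of 8 in Per2, 19 of 20 in Per1 and 4 of 4 in each of Gm129 and Rgs16 were higher by day, with median folds of 1.57, 1.48, 1.70, 2.84 and 1.52. All 3 Hmgb3 junctions were higher too. In Rasl11b 1 junction was higher and 1 lower, and in Sfpq 7 were lower and 2 higher. These genes were chosen because their gene reads were called in the same libraries. A shared direction of their junctions is therefore not separate support.

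Junction usage, the share of a gene's junction reads that falls on each of its junctions, was tested in 8636 genes. Hnrnpa3, an RNA-binding protein gene, was the 1 gene called (0.0116%, edgeR Simes adjusted p = 0.0103), with 245 at an unadjusted p below 0.05. Its junction at chr2:75497447-75499522 (mm9) had 0, 3, 7 and 3 reads by day, against 145, 7, 8 and 26 reads by night. The 22 h night library, which also had the highest pituitary markers, thus held most of the reads. The Hnrnpa3 call is uncertain: 0 genes were called without the 22, 28, 52 or 64 h library, and 2, 35, 20 and 8 genes without the 34, 40, 46 and 58 h libraries. The junction of Chchd2 at chr5:130358451-130359804, chosen after its values were seen, had the same shape: 0, 0, 3 and 4 reads by day, against 217, 1, 3 and 28 reads by night.

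The day-night difference was also compared between the 2 cycles. An edgeR test of its change between cycles called 0 genes (0%), with 249 at an unadjusted p below 0.05. It called 2, 13, 3 and 4 genes without the 28, 34, 40 and 58 h libraries. For all 16 called genes the first and the second cycle had the same sign, which the call itself favours. Across 11901 genes with a mean of at least 5 CPM, the differences of the 2 cycles, which share no library, correlated with a Pearson r of 0.260 and a Spearman rho of 0.254; genes are not independent replicates. Dbp differed by a log2 of 1.14 in the first and 1.16 in the second cycle, and Dnajb1 by -0.71 and -0.67. Dusp4 had the most unequal values of the called genes, 1.02 and 1.93.

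**Figure D5:**
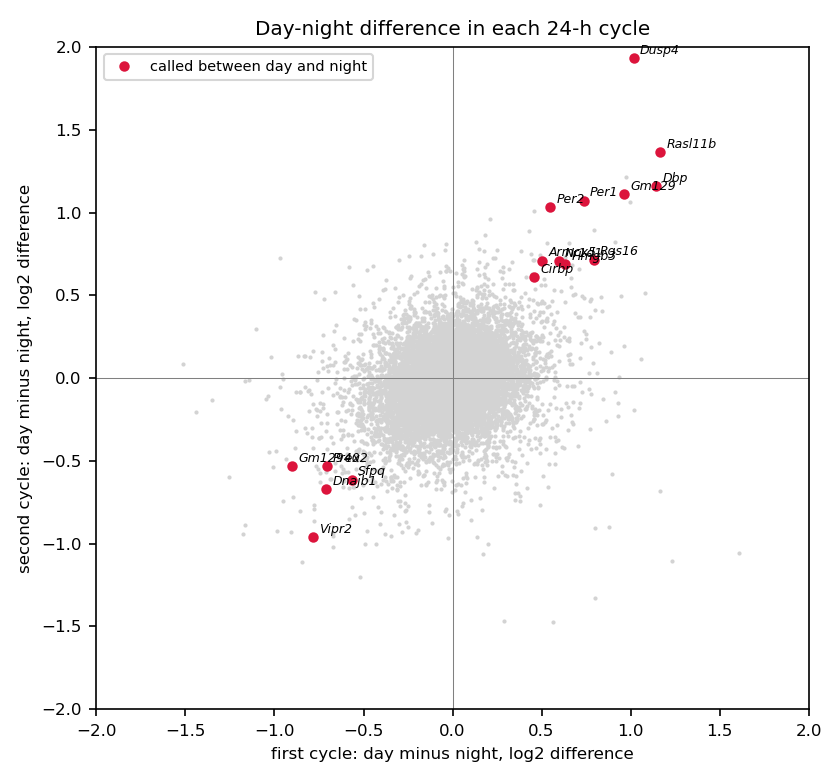
Day-minus-night log2 difference in the first cycle (28 and 34 h minus 22 and 40 h, x axis) and in the second cycle (52 and 58 h minus 46 and 64 h, y axis) for 11901 genes, 4 of them beyond the axes. The 16 called genes (red) lie in the quadrants of equal sign, at the edge of or outside the cloud of all genes.

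The dusk-dawn term sets CT 10 and CT 16 (34, 40, 58 and 64 h) against CT 22 and CT 4 (22, 28, 46 and 52 h). No gene was called higher at dusk (0%) and 3 were called lower (0.0197%), with 1193 genes at an unadjusted p below 0.05 in either direction. Rgs16 had 137, 80.3, 148 and 81.9 CPM at dusk, against 152, 268, 203 and 304 CPM at dawn. These groups did not overlap, and the dusk-minus-dawn log2 difference was -1.07 ± 0.10 (SE, edgeR adjusted p = 0.000142). Fabp7, the brain fatty-acid-binding protein of astroglia, had 43.0, 28.8, 33.0 and 32.9 CPM at dusk, against 63.6, 87.3, 58.9 and 90.2 CPM at dawn. Its log2 difference was -1.11 ± 0.11 (SE, edgeR adjusted p = 0.000182), while between day and night its fold was 1.34 (edgeR adjusted p = 0.265). Rasl11b was the third, with a log2 difference of -1.12 at dusk (edgeR adjusted p = 0.00177). Without the 22 h library 6 genes were called between dusk and dawn, without the 40 h library 60 and without the 46 h library 5. Marker lists also differed along this term. Of 12 oligodendrocyte markers 0 were lower at dusk, with a median log2 difference of 0.56, and of 9 meningeal markers 1, with 0.46. All 7 blood markers and all 6 telencephalic neuron markers tested were lower at dusk, with medians of -0.58 and -0.71. Their part in the dusk-dawn calls was not tested.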

How the data were processed

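Per the labels' protocols, polyA RNA from pools of 3 mice was made into strand-preserving libraries. The aligner was STAR 2.3.0e and the genome build mm9, per the submitters' processing notes. Whole-number counts of reads per gene, per intron and per junction were deposited by the authors. How reads were counted, with which strand setting, and how column totals came to be nearly equal is not given in the sources used here. Differences between libraries in total output were thereby lost. Every column used had a sample.

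The deposited counts entered quasi-likelihood F tests in edgeR 4.0.16 (with limma 3.58.1 and R 4.3.3), with TMM scaling, a day-night and a dusk-dawn term, and Benjamini-Hochberg adjustment at 0.05 over all features with at least 10 reads in at least 2 libraries. Intron and junction counts used the library sizes of the gene fit, except in the test of intron against gene differences, where each used its own TMM-scaled sizes. Of 176269 introns, 137091 were summed per gene, namely those with a single gene symbol and no overlap with another intron of that gene. Junction usage was tested with edgeR's diffSpliceDGE. Folds are day over night; CPM are counts-per-million of scaled sense gene reads. The code was run on simulated data with known day-night changes, a fixed spread and no dusk-dawn effect. That run cannot show how the fits behave on these data.

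Of 20741 gene IDs, 19628 matched the table of gene names, and 76 symbols were borne by more than 1 ID. The lists hold 779 symbols in 46 lists (30 of pathways, 16 of cell markers), of which 765 were in the gene table. The groups and lists were chosen with earlier results of these data known. Named were the called genes, the core clock genes, up to 3 of each other list and 10 further genes by p, and the first 5 introns and junctions; other members named of the heat shock, peptide and similar lists, and of the called introns, were added for their roles after their values were seen. Some genes that this rule names are not reported here. Alternatives were DESeq2 1.42.0, other scalings and filters, other covariates, and each library left out in turn; their use on list counts was added after seeing the data. Promoters came from RefSeq (GRCm38.p6).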

Additional observations from a re-analysis of the deposited data

Results flagged for a closer look

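In 7 of 232 groups of 4 libraries, drawn from 116 named measures, the highest or lowest library lay far from the other 3. For 4 values drawn from the same normal distribution, chance alone flags about 1 in 20 groups. Each group here mixes different circadian times, so that rate is only a rough guide. Of the 7, 3 were day and 4 night libraries.

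Dnajb1, the HSP70 co-chaperone gene called lower by day, had 117 CPM in the 40 h night library and between 87.2 and 91.6 CPM in the other 3 night libraries. Fbxl21, an F-box gene, had 8.50 CPM in the 64 h night library, against 10.99 to 11.4 CPM in the others. Hmgn5, which encodes a nucleosome-binding protein, had 55.0 CPM in the 52 h day library, against 33.1 to 34.9 CPM in the other day libraries. DQ704763 introns had 9.97 CPM in the 58 h day library, against 4.53 to 5.22 CPM in the other day libraries.

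The Hnrnpa3 junction starting at 75497447 (mm9, chromosome 2) had 12.98 CPM in the 22 h night library, against 0.639 to 2.33 CPM in the others. Summed pituitary markers were at 119 CPM in the same 22 h library, against 2.73 to 8.23 CPM in the other night libraries. Summed arcuate neuron markers were at 108 CPM in the 34 h day library, against 27.5 to 37.9 CPM in the other day libraries. No explanation was tested.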

How the results depend on the processing

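The 99 named results kept their direction in 829 of 829 refits under other settings and in all but 4 of 792 refits without 1 library. Those 4 were Rorb, whose log2 difference ranged from -0.054 (without the 22 h library) to 0.14 and was -0.016 without the 52 h library, and Cry1, with a range from -0.030 (without the 58 h library) to 0.073 and -0.012 without the 64 h library. Of the 16 called genes, 4 (Dbp, Rasl11b, Per1 and Rgs16) kept their call in all 8 leave-outs, as did 2 of the 14 called introns (Dbp and D4Wsu53e).

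The count of 16 called genes became 56 with DESeq2, 137 with no filter on low counts, 5 without the dusk-dawn term, 28 with a 12-h term and 34 with an oligodendrocyte marker score; it ranged from 4 (without the 58 h library) to 28 (without the 46 h library). Dusk-dawn calls, 3, ranged from 3 to 60 without single libraries, and cycle-interaction calls, 0, from 0 to 13. Called introns, 14, became 47 with DESeq2 and 61 without the filter, and ranged from 2 to 14 without single libraries. The 1 called junction became 21 with DESeq2, 122 without the filter and 5 with the stricter filter of 50 reads in 4 libraries, with 0 to 30 without single libraries. Junction usage, 1 gene, became 0 under the stricter filter and ranged from 0 to 35.

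DESeq2 gave no adjusted p for the introns of DQ704763, Syt17 and Creb3l1. Without a filter, very low features enter the fit and its spread estimate. The cause of the other changes was not tested. The labels give no replicate numbers by which libraries could be paired; with the cycle as a block 17 genes were called, the 16 among them. Junction counts had the widest spread between libraries, which limits what they can show.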

Other observations

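Genes for neuronal excitability gave no call between day and night. Of 26 potassium channel genes, 10 were higher and 16 lower by day; Kcnma1, the large-conductance calcium-activated channel, had a fold of 0.648 with an edgeR adjusted p of 0.537. Of 22 sodium, calcium and cation channel genes, 7 were higher and 15 lower. The 24 GABA genes split 12 to 12, with a median fold of 0.998, and so did the 24 glutamate receptor genes, with 0.999. Gabrb1, a GABA receptor subunit, averaged 8.71 ± 1.10 CPM in the day libraries and 13.1 ± 1.60 CPM in the night libraries (SD, n = 4 each) without overlap, and Grm3, a metabotropic glutamate receptor, 20.7 ± 2.42 CPM in the day libraries and 27.3 ± 2.29 CPM in the night libraries (SD, n = 4 each), also without overlap. Their edgeR adjusted p-values were 0.332 and 0.392. Of 30 cAMP signalling genes tested, 17 were higher and 13 lower.

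Pmch, the melanin-concentrating hormone gene of the lateral hypothalamus, was chosen after its values were seen. It had 104, 19.8, 1.98 and 13.4 CPM in the day libraries, against 4.39, 0.821, 5.82 and 5.99 CPM in the night libraries. The 28 h library, which also had the most choroid plexus marker reads (147 CPM) and the fewest oligodendrocyte marker reads (5112 CPM), was far above the other 7.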
